A study of Homo sapiens with 3 samples.

Results

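The E-box is the DNA hexamer CACGTG, and these results describe the CRY1 binding sites that held one at promoters read in a single direction. A binding site entered when its summit, the base of highest read pileup, lay within 1 kb of an annotated transcription start site (TSS), when every TSS within that distance was on the same strand, and when a CACGTG lay wholly within 50 bp of the summit. Of 2549 CRY1 summits on chromosomes 1 to 22 and X, 1143 were at such one-strand promoters and 521 of these carried the E-box (45.6%, 95% interval 42.7 to 48.5%). The other 622 lacked it. The rule used position and sequence but no measured binding strength.

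The chromatin came from C4-2, an established line of castration-resistant prostate cancer cells, kept in hormone-proficient medium for 24 h before harvest as the vehicle condition. CRY1 was pulled down from it with a specific antibody in 2 immunoprecipitates, and the recovered DNA was sequenced (ChIP-Seq) beside 1 input library. The authors called peaks once on the pooled immunoprecipitates, so no peak has a replicate error, and read depth is unknown from the list. Intervals given here therefore cover the counting of peaks or E-boxes only, and peaks were counted as independent although 133 of the 521 had another summit within 1 kb.

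Cryptochrome 1 (CRY1) is a core repressor of the circadian clock. The activators CLOCK and BMAL1, both basic helix-loop-helix proteins, bind the E-box as a heterodimer and switch on the PER and CRY genes, whose protein products return to the nucleus and repress the same heterodimer. CRY1 has no E-box binding domain of its own and reaches such sites through its partners. The same hexamer is bound by other helix-loop-helix proteins, such as MYC with MAX, USF1 and the TFE3 family, so the sequence alone does not name the protein beneath CRY1.

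The sites below show the E-box of members from the clock, and of members from growth and glycolysis genes, in 30 bases centred on the hexamer. Each is written 5′ to 3′ along transcription of the nearest gene, with GRCh37 (hg19) coordinates, and capitals mark CACGTG.
PER1 (chr17:8055878-8055907, minus strand): agcacccaggtcCACGTGcgcccgtgtgtg
TEF (chr22:41777431-41777460, plus strand): cggctgcggctcCACGTGacccgcgggggg
DBP (chr19:49137941-49137970, minus strand): acattcctgcgcCACGTGagtcctcccatc
BHLHE41 (chr12:26278001-26278030, minus strand): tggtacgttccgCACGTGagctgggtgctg
TIMELESS (chr12:56843218-56843247, minus strand): ttcgctcggagtCACGTGgaccagcccggc
CIPC (chr14:77565972-77566001, plus strand): acacatgttataCACGTGacacattttaaa
CAD (chr2:27440336-27440365, plus strand): gcgcgccgtcctCACGTGgttccagtggag
NCL (chr2:232328494-232328523, minus strand): ctgtgtttcgggCACGTGgtggcctaccag
LDHA (chr11:18416011-18416040, plus strand): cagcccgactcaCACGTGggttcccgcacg
PFKFB3 (chr10:6205758-6205787, plus strand): gcacgccgcgttCACGTGctgtcgcgcgcc

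In 475 members the window held 1 E-box, in 41 it held 2, in 4 it held 3 and in 1 it held 4, which made 573 E-boxes in all. The first 4 sites below are members with 3 or more E-boxes and the last 2 are members with 2 from among the strongest, shown because the number of E-boxes is compared with binding strength further on. The 30 bases reach 2 of the hexamers in each.
ELFN1-AS1 (chr7:1781637-1781666, minus strand): cccacaCACGTGtttgtaCACGTGagccct
HSPBAP1 (chr3:122512669-122512698, minus strand): atccgtCACGTGacctcCACGTGagagccg
LAMP1 (chr13:113951358-113951387, plus strand): gggtCACGTGggtccagggtCACGTGccgc
KAT5 (chr11:65479436-65479465, plus strand): gcCACGTGacccgctccgcataCACGTGac
TMEM185B (chr2:120980721-120980750, minus strand): gggcCACGTGaccgcgcgtgCACGTGttcc
FAM83F (chr22:40390589-40390618, plus strand): agaaCACGTGctccggactcCACGTGcgcg

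The nearest gene was protein-coding for 459 members (88.1%), a long noncoding RNA for 52 and of another kind for 10. The members lay near 502 different genes, and 19 genes were nearest to 2 members each. Transcription ran on the plus strand at 270 and on the minus strand at 251. The 573 E-boxes were placed by the annotation of all transcripts on the strand of the gene. In an intron lay 201 (35.1%), outside every gene of that strand 180 (31.4%), in a noncoding exon or UTR 143 (24.96%) and in a coding exon 49 (8.55%).

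Binding strength was read as the fold enrichment, the ratio of read pileup at the summit to the local background. It ranged from 2.53 to 22.7 among the members, with a median of 5.85 and quartiles of 4.73 and 7.70. Of the members with the 20 highest fold enrichments, 19 are described here. HAGHL was at 20.9, and the long noncoding RNA ELFN1-AS1 at 19.9. Signalling and transcription genes stood among the next: PIK3IP1, an inhibitor of phosphoinositide 3-kinase, at 18.9, RALGDS, an exchange factor for the small GTPase Ral, at 18.1, EPOP, a partner of Polycomb repressive complex 2, at 18.1, and KLF11, a zinc-finger transcription factor, at 17.1. OSBPL1A, which encodes an oxysterol-binding protein relative, was at 19.1. DERL3, a factor of protein degradation from the endoplasmic reticulum, was at 15.9, SLC7A8, an amino acid transporter, at 15.8, and AP1S1, a subunit of a clathrin adaptor, at 15.2. The actin regulator MICAL2 closed the top 20 at 14.1. The remaining places were taken by PER1, TEF and CIPC, described with the clock genes below, by TMEM185B at 15.5 and FAM83F at 15.4, and by 3 genes for which the annotation gives a long noncoding RNA or an identifier only, namely LINC00319 at 16.3, ENSG00000290916 at 16.7 and ENSG00000276317 at 14.2. In all, 62 of the 521 members (11.9%) reached a fold enrichment of 10, against 146 of the 2028 other summits (7.20%).

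Clock genes stood among the members from rank 8 to near the end of the ranking. Of 24 genes in a clock list, 5 (20.8%) had a member, where 2.33% of 20090 protein-coding genes did. At PER1, a repressor that partners CRY1, the fold enrichment was 17.8 with the summit 170 bp upstream of the TSS. TEF and DBP, related bZIP activators that carry the rhythm to output genes, were at 15.2 and 12.7. BHLHE41, a helix-loop-helix repressor that binds E-boxes itself, was at 7.99. TIMELESS, which protects the replication fork, was at 3.17, and ranked 511 of the 521. The members at these 5 genes had a median of 12.7, where all members had 5.85. Within 1 kb of a TSS, each of the 5 genes also had 1 or 2 summits without an E-box. These reached 17.1 at DBP and 6.05 at TIMELESS, above the member of the same gene. At PER1, TEF and BHLHE41 they reached 15.2, 5.84 and 4.65, below the member. CIPC, which encodes a CLOCK-interacting repressor and was not in the list, had 2 members, with fold enrichments of 14.7 and 5.01 and summits at 449 and -582 bp from the start sites nearest to them (negative is upstream). A further 9 clock genes had a CRY1 summit within 1 kb of a TSS but no member. At PER3 and CRY2 the summits, with fold enrichments of up to 17.8 and 13.0, were at one-strand promoters. None of them held a CACGTG wholly within 50 bp, beyond which the rule did not look. At PER2 the summit, at 22.8, held none wholly within 50 bp either and had start sites on both strands. At NR1D2 the summit with the hexamer, at 17.8, also had start sites on both strands. The other 10 genes of the list had no summit within 1 kb.

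**Figure D1:**
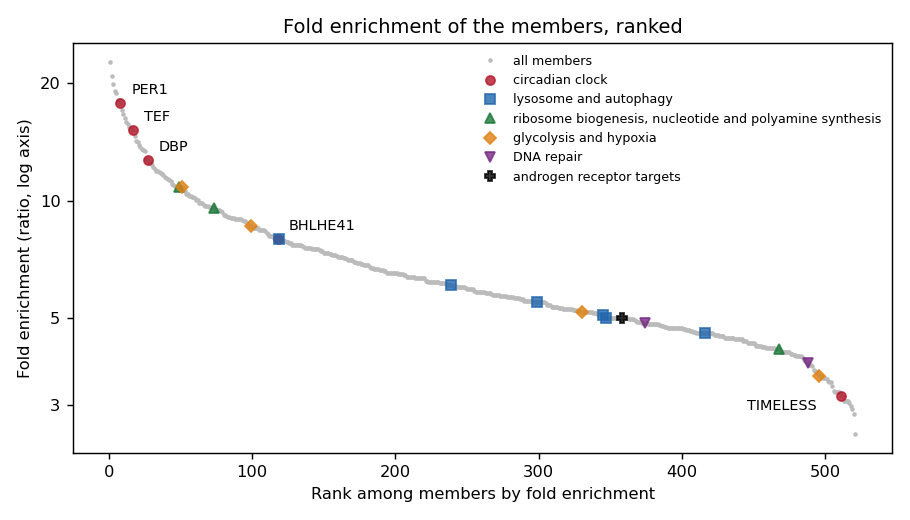
Fold enrichment (ratio, log axis) of the 521 members in order of rank, with members of the gene lists marked by symbols. Clock genes run from PER1 at rank 8 to TIMELESS at rank 511, and the symbols of the other lists lie at or below the 10.9 of CAD.

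Members at genes in the lists of growth, glycolysis and the lysosome had fold enrichments from 3.57 to 10.9. Genes of metabolism outside these lists were not counted. Of 30 genes of ribosome biogenesis, nucleotide and polyamine synthesis, 3 had a member (10%), and each of these 3 members held 2 E-boxes. CAD, the enzyme that starts pyrimidine synthesis, was at 10.9, NCL, the nucleolar protein nucleolin, at 9.56, and DKC1, the pseudouridine synthase dyskerin, at 4.17. A further 9 genes of this list had a CRY1 summit within 1 kb but no member, with fold enrichments of up to 17.6 at PPAT and PAICS, purine synthesis genes that share a promoter region with start sites on both strands, and 15.5 at NPM1, which encodes nucleophosmin. Of 30 genes of glycolysis and hypoxia, 4 had one (13.3%): PFKFB3, which makes the activator of phosphofructokinase, at 10.9, LDHA, lactate dehydrogenase A, at 8.60, HK2, hexokinase 2, at 5.20, and PFKM, muscle phosphofructokinase, at 3.57. A further 7 had a CRY1 summit but no member, up to 10.1 at ANKRD37. Of 40 lysosome and autophagy genes, 5 had a member (12.5%). ATP6V0D1, a subunit of the proton pump, was at 7.99, CTSF, the protease cathepsin F, at 6.09, and FLCN, a regulator of nutrient signalling at the lysosome, at 5.09. NAGLU, a heparan sulfate hydrolase, had 2 members at 5.52 and 4.60. LAMP1, a lysosomal membrane protein, was at 5.01 although its window held 4 E-boxes. A further 3 genes of this list, HEXA, FNIP1 and RRAGC, had a summit but no member, at 3.34, 7.35 and 7.65.

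Members at genes in the lists of DNA repair and androgen-receptor targets had fold enrichments from 3.85 to 5.01. Genes outside these lists were not counted. Of 30 DNA repair genes, XRCC3 of homologous recombination, at 4.87, and the polymerase subunit POLD2, at 3.85, had one (6.67%), and the other 28 had no CRY1 summit within 1 kb of a TSS. Of 29 protein-coding targets of the androgen receptor, the steroid hormone receptor that drives prostate cancer, only FKBP5, a chaperone partner of steroid receptors, had a member (3.45%), at 5.01. A further 6 of these targets had a CRY1 summit within 1 kb but no member, with fold enrichments of up to 8.05 at HERC3 and 6.83 at ZBTB10. The counts of genes with a member stand against the 2.33% of protein-coding genes that had one. No such share over all genes is given for summits of any kind. The counts of listed genes with other summits, or with none, therefore have no background here. No list was tested.

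Members were bound more strongly than the one-strand promoter summits that lacked an E-box. The median fold enrichment was 5.85 in the 521 members and 4.98 in the 622 others, and the median peak width was 293 bp against 150 bp. Of all 2549 summits, 51.2% lay at or above their own median fold enrichment of 5.18, ties included. This share was 64.7% (337) in the members and 44.2% (275) in the others, a difference of 20.5 percentage points (95% interval 14.7 to 26.0). Two-sided Fisher's exact test with Benjamini-Hochberg adjustment over 3 comparisons gave an adjusted p of 1.32e-11. Of all peaks, 50.1% were at or above the median width of 181 bp. Here the members reached 64.7% and the others 42.1%, a difference of 22.6 points (16.8 to 28.1, adjusted exact p = 1.16e-13 over 5 comparisons).

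The difference in fold enrichment was present at each kind of one-strand promoter. Within 200 bp of a TSS it was 23.2 points and farther out 16.9 points. In CpG-rich windows, with at least 50% G or C and an observed-to-expected CpG ratio of at least 0.6 within 250 bp either side of the summit, it was 21 points, and in other windows 19.1 points. Upstream of the TSS it was 22.2 points and downstream 18.01 points. These 6 splits were added after the data were seen. A further summit within 1 kb was present for 25.5% of members and 41.8% of the others, and with the summit of highest −log10 q alone kept within each 1 kb the difference was 19.5 points. When the midpoint of the peak stood in for the summit, only 342 peaks qualified, the difference in fold enrichment fell to 1.09 points (adjusted exact p = 0.747) and that in width turned to -13.7 points (adjusted exact p = 1.28e-04).

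**Figure D2:**
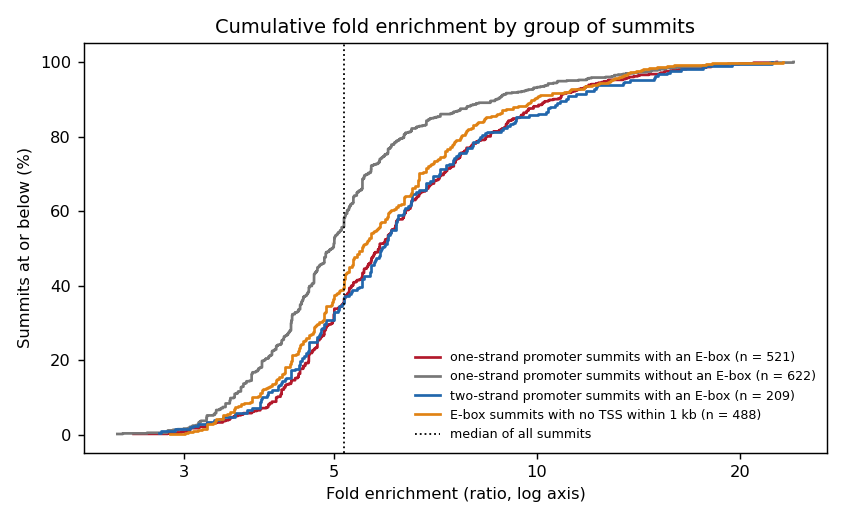
Cumulative share of summits (%) at or below each fold enrichment (ratio, log axis) in 4 groups, with the median of all 2549 summits as a dotted line. The curve of the 622 one-strand promoter summits without an E-box rises first, with 44.2% at or above the dotted line, while the members have 64.7%.

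Among summits that all held an E-box, no difference by place passed the test. The 209 summits at promoters with start sites on both strands had a median fold enrichment of 5.90, and 64.6% lay at or above the median of all summits, a difference from the members of 0.09 points (-7.37 to 7.88, adjusted exact p = 1 by the same exact test). The 488 E-box summits with no TSS within 1 kb had a median of 5.52 and a share of 60.04%, 4.64 points below the members (-1.33 to 10.6, adjusted exact p = 0.202). The second comparison passed the threshold when promoters were taken within 500 bp of a TSS (7.46 points, adjusted exact p = 0.0180) or when neighbouring summits were thinned to 1 per 1 kb (9.23 points, adjusted exact p = 0.00687).

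Members with several E-boxes had higher fold enrichments than members with a single one. The 46 with 2 or more ran from 3.24 to 19.9 with a median of 8.97 (quartiles 5.77 and 10.2). The 475 with 1 ran from 2.53 to 22.7 with a median of 5.72 (quartiles 4.73 and 7.40). Of the 46, 38 (82.6%) were at or above the median of all summits, against 299 of the 475 (62.9%), a difference of 19.7 points (5.68 to 29.1, adjusted exact p = 0.0226 over 5 comparisons, Fisher's exact test). The 5 members with 3 or more E-boxes spread widely, from ELFN1-AS1 at 19.9 and HSPBAP1 at 9.22 through the chromatin remodeller INO80 at 7.31 and LAMP1 at 5.01 to the acetyltransferase KAT5 at 4.02. The 52 pairs of neighbouring E-boxes had between 0 and 66 bases between them, with a median of 21. Only 2 pairs had 6 or 7 bases between and 4 had 10. The call on number was lost with a window of 25 bp (17.0 points, adjusted exact p = 0.873), with transcripts of protein-coding genes only (11.8 points, 0.186), with q < 0.01 (18.01 points, 0.0552) and with peak midpoints (0.17 points, 1).

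Inside the 50 bp that the rule allows, E-boxes lay on either side of the summit and nearer to it than an even spread. Over the 475 members with a single E-box the median distance between hexamer centre and summit was 19.5 bp, and 250 (52.6%, 48.1 to 57.1%) lay within 20 bp, where an even spread over the 96 places that the rule allows would put 41.7%. Within 10 bp lay 127 (26.7%, 22.9 to 30.9%) against 20.8% for an even spread. With the window cut to 25 bp the share within 10 bp was 44.4%, where an even spread gives 43.5%. Along transcription 228 hexamers were centred upstream of the summit and 247 downstream (two-sided exact binomial p = 0.409). At PER1 the hexamer was centred 30.5 bp downstream of the summit and at DBP 2.5 bp downstream. The limit of 50 bp did not fall at a gap: the 50 members whose nearest E-box ended 41 to 50 bp from the summit had a median fold enrichment of 5.58, and the 38 summits just outside, ending at 51 to 60 bp, one of 5.41.

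**Figure D3:**
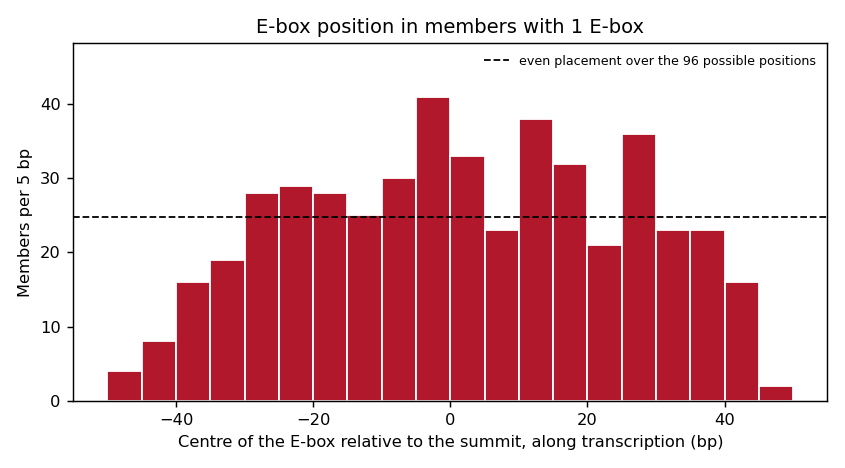
Number of members per 5 bp by the position of the E-box centre relative to the summit (bp, positive downstream along transcription), for the 475 members with 1 E-box, with the count for an even spread as a dashed line. The bars exceed the dashed line around 0 and drop toward both ends, with 250 of 475 within 20 bp.

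Summits with and without an E-box did not differ in position past the threshold. Of the members, 307 were upstream of or at the TSS and 214 (41.1%) downstream, against 40.8% downstream in the 622 others, a difference of 0.24 points (-5.46 to 5.96, adjusted exact p = 0.952). Within 200 bp of a TSS lay 296 members (56.8%) and 54.7% of the others, 2.15 points apart (-3.63 to 7.89, adjusted exact p = 0.592). The windows of 376 members (72.2%) were CpG-rich, against 75.7% of the others (-3.56 points, -8.68 to 1.54, adjusted exact p = 0.293, all by Fisher's exact test). The 100 bp just upstream of the TSS held 112 members, the largest number of any 100 bp. Median fold enrichment among members rose toward the TSS on its upstream side and showed no steady change downstream. Neither pattern was tested. Upstream of the TSS it was 5.41 at 500 to 1000 bp, 5.97 at 200 to 500 bp and 6.19 within 200 bp, and downstream it was 5.63 within 200 bp, 6.08 at 200 to 500 bp and 5.14 beyond.

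**Figure D4:**
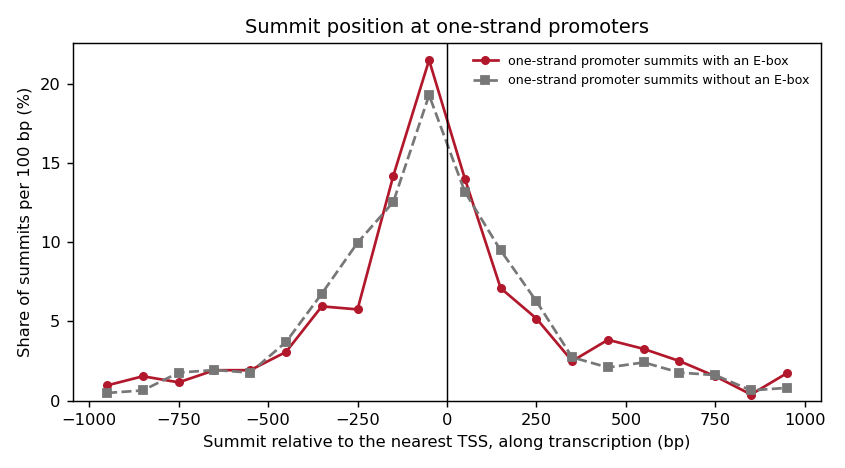
Share of summits (%) per 100 bp by position of the summit relative to the nearest TSS (bp, positive downstream) at one-strand promoters with and without an E-box. Both lines peak in the 100 bp upstream of the TSS, at 21.5% of members and 19.3% of the others.

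None of 10 other promoter motifs, searched on both strands within 50 bp of the summit, separated the members from the summits without an E-box after adjustment, while 3 had an unadjusted p under 0.05 by Fisher's exact test. These were the CCAAT box (CCAAT), in 5.95% of members and 9.97% of the others, the E′-box (CACGTT), in 4.22% and 7.72%, and the E-box-like CACGCG, in 11.5% and 16.6%, each with an adjusted p of 0.0602 over the 10 motifs. Over all summits the 3 motifs were present in 8.91%, 6.63% and 10.9%. Under alternatives chosen after the data were seen, 6 settings gave motifs past the threshold and 6 gave none. With neighbouring summits thinned to 1 per 1 kb all 3 motifs passed, each rarer in members (adjusted exact p = 0.0387 each). The GC box (GGGCGG), the commonest of the 10, was in 36.1% of members, 39.7% of the others and 27.0% of all summits. The other 6 were each in 0.38 to 3.455% of members. They were the ETS motif (CCGGAAG), the NRF1 core (GCATGCGC), the cyclic AMP response element (TGACGTCA), the TATA box with the letters TATAAA, the YY1 motif (AAGATGGC) and the AP-1 motif, searched as TGANTCA.

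Seen from the genome, few promoter E-boxes had a called CRY1 summit within 50 bp. Read depth is unknown, so an E-box without a called summit is not shown to be free of CRY1. The one-strand promoters held 26972 CACGTG hexamers, and 575 of them (2.13%) had a CRY1 summit within 50 bp and are called occupied here. This number is not the 573 above because the promoter was judged at the hexamer, not at the summit. CpG content marked the largest contrast, with 416 of 4022 hexamers (10.3%) occupied in CpG-rich windows, here centred on the hexamer, and 159 of 22950 (0.693%) elsewhere, a difference of 9.65 points (8.74 to 10.6, adjusted exact p = 1.36e-216 over 3 comparisons, Fisher's exact test). Within 200 bp of a TSS 4.24% of 7739 were occupied and farther out 1.28% of 19233 (2.95 points, 2.495 to 3.45, adjusted exact p = 3.09e-46). Both held together, from 12.6% in CpG-rich windows within 200 bp through 7.90% in CpG-rich windows beyond and 1.15% in other windows within 200 bp to 0.544% in the rest. By nearest gene, 3.005% of hexamers at protein-coding genes and 0.689% at other genes were occupied.

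**Figure D5:**
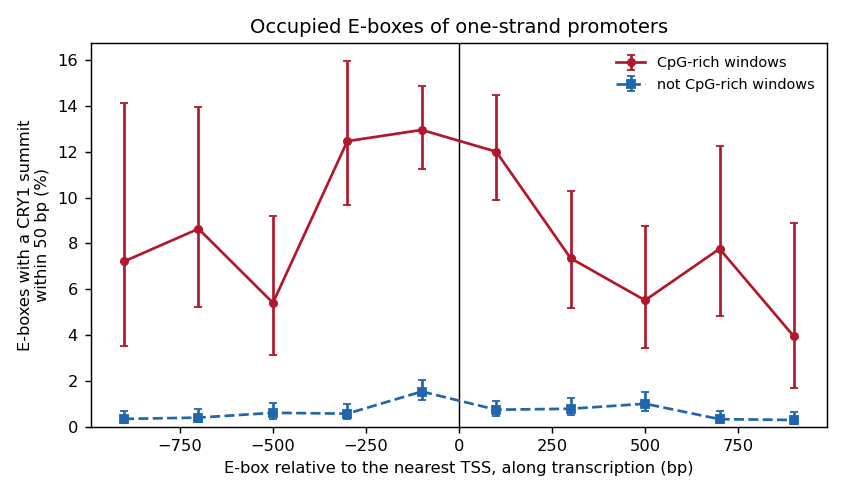
Share of E-boxes (%) in one-strand promoters with a CRY1 summit within 50 bp, per 200 bp of distance to the nearest TSS (bp, positive downstream), with Wilson 95% intervals as bars. CpG-rich windows reach 13.0% just upstream of the TSS, and other windows stay at or below 1.53%.

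A further hexamer nearby went with occupancy. Of 1276 hexamers with another within 50 bp 91 were occupied (7.13%), against 484 of 25696 alone (1.88%), a difference of 5.25 points (3.95 to 6.80, adjusted exact p = 2.21e-24). Among CpG-rich windows alone the difference was 8.53 points. By the number of bases to another hexamer, 10 of 162 were occupied at 0 to 5 bases (6.17%, 3.39 to 10.99%), 5 of 62 at 6 or 7 (8.06%, 3.49 to 17.5%) and 22 of 235 at 8 to 14 (9.36%, 6.26 to 13.8%). The share was 35 of 309 at 15 to 24 bases (11.3%, 8.26 to 15.4%) and 28 of 633 at 25 to 44 (4.42%, 3.08 to 6.32%). It was 7.52% with 1 other hexamer within 50 bp and 5.19% with 2 or more, of 1064 and 212 hexamers. The hexamers of 1 pair share a promoter and often a summit, so they are not independent. A summit at 1 hexamer of a pair can also mark the other as occupied. Part of the difference can therefore come from the definition of occupied, and the size of that part was not tested. A degenerate partner, CACGTG with 1 mismatch, stood 6 bases from 20 of 484 occupied single hexamers (4.13%) and from 367 of 25212 unoccupied ones (1.46%). That spacing did not stand alone, since among spacings of 0 to 20 bases the shares at 5 bases were 2.07% and 0.829%, at 8 bases 2.89% and 1.06%, and at 11 bases 2.07% and 0.682%. These shares are a description without a test.

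The bases beside the hexamer also went with occupancy. Each strand-symmetric octamer, CACGTG with 1 base on either side, was compared with the rest of the hexamers, and 4 of 10 differed after adjustment (Fisher's exact test). CCACGTGG was occupied least, in 32 of 2939 cases (1.09%, adjusted exact p = 9.69e-05). It was also lower in CpG-rich windows, at 5.65% (adjusted exact p = 0.00159), and within 200 bp of a TSS, at 1.96% (adjusted exact p = 5.51e-04). ACACGTGG was low overall at 1.30% (adjusted exact p = 9.28e-04) and within 200 bp of a TSS at 2.73% (adjusted exact p = 0.0416). It was also low outside CpG-rich windows, at 0.358% (adjusted exact p = 0.0457), but did not pass in CpG-rich windows, at 8.97% (adjusted exact p = 0.708). CCACGTGA was high at 2.98% (adjusted exact p = 0.00149), and in CpG-rich windows at 13.5% (adjusted exact p = 0.0305), but the call was lost when the summit had to lie within 25 bp (0.39 points, adjusted exact p = 0.0938). CCACGTGC, the octamer at PER1 and NCL, was at 2.71% (adjusted exact p = 0.0197), a call lost in CpG-rich windows, within 200 bp of a TSS and at q < 0.01. Some octamers passed in subsets but not over all hexamers. Among CpG-rich windows ACACGTGA was at 15.7% (adjusted exact p = 0.0305), ACACGTGC at 13.9% (adjusted exact p = 0.0343) and TCACGTGA, lower, at 5.64% (adjusted exact p = 0.0305). ACACGTGA also passed outside CpG-rich windows, at 1.30% (adjusted exact p = 0.00610). ACACGTGC passed within 200 bp of a TSS, at 5.94% (adjusted exact p = 0.0439). With the summit within 25 bp, ACACGTGC (adjusted exact p = 0.0109) and TCACGTGA (adjusted exact p = 0.0133) passed. Among members with a single E-box the median fold enrichment ran from 5.09 for TCACGTGA to 6.38 for ACACGTGT. These 2 medians rest on 9 and 21 members, with overlapping ranges of 4.112 to 7.575 and 3.065 to 11.93, and the order was not tested.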

How the data were processed

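C4-2 chromatin was immunoprecipitated for CRY1 by the authors, who aligned the reads to hg19 with bowtie2 and called peaks with MACS2 on the pooled replicates at q < 0.05. Use of the input as control was presumed. The deposited list held 2551 peaks, each with the authors' fold enrichment (a linear ratio), −log10 p and −log10 q, a score equal to the whole part of 10 times −log10 q, and the summit as a distance from the peak start. The 2 peaks on unplaced contigs were left out.

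Start sites were those of all transcripts in GENCODE release 44 mapped to GRCh37, and both strands of the GRCh37 sequence were searched. Shares have Wilson 95% intervals and differences of shares Newcombe intervals. Shares were compared by two-sided Fisher's exact tests in scipy 1.17.1, with Benjamini-Hochberg adjustment at 0.05 within each family, and the code was tested on simulated data. Fold enrichment and width were split at the median of all summits. Genes were named when they held the 20 highest fold enrichments, 3 or more E-boxes, or a place in 1 of 6 gene lists. Members and lists were chosen with earlier results of these data known. The values of 1 gene are not reported here.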

Additional observations from a re-analysis of the deposited data

How the results depend on the processing

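The 262 values recomputed under alternatives comprised 196 that kept their direction and side of the threshold, or for counts and values without a test moved little, 9 that lost a call, 19 that gained one, 29 that changed sign and 9 values without a test that moved. The 29 included only 1 difference that had passed the threshold in both fits. Their cause was not tested.

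Windows of 25 bp gave 318 members, 44.4% of single E-boxes within 10 bp (an even spread over that window gives 43.5%), a side share of 50.3% upstream, -0.52 points downstream of the TSS, 0.59 points for CpG-rich windows and 17.0 points for E-box number. Windows of 100 bp gave -2.42 points downstream and 0.64 for the CCAAT box. The downstream share differed by -1.87 points at 500 bp, -1.46 at 2 kb, -3.94 with protein-coding transcripts, -2.35 with midpoints, -0.69 with basic transcripts and -0.22 without members that shared a 32-mer. Within 200 bp of a TSS the difference was -0.12 at 2 kb and -0.96 with midpoints. Fold enrichment against promoters with start sites on both strands differed by -3.06 at 500 bp, -0.63 at 2 kb, -7.70 with protein-coding transcripts, -2.65 with midpoints, -3.76 after thinning, -0.68 with canonical and -0.30 with basic transcripts. Against E-box summits away from start sites it was 7.46 at 500 bp and 9.23 after thinning. The gain with more E-boxes was 11.8 with protein-coding transcripts, 18.01 at q < 0.01 and 0.17 with midpoints. Midpoints also gave 342 members, 1.09 points of fold enrichment against summits without an E-box and -13.7 of width. Motifs past the threshold numbered 2 at 500 bp, 2 at 2 kb, 1 with protein-coding transcripts, 1 at a fold enrichment of at least 5, 3 after thinning and 1 with basic transcripts.

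GCACGTGA differed by 0.16 points with hexamers within 25 bp, 0.14 inside the whole peak, 0.47 with protein-coding transcripts, 0.15 in CpG-rich windows and 0.34 within 200 bp of a TSS. GCACGTGC differed by 0.29 within 25 bp and 0.35 with protein-coding transcripts, and CCACGTGC by -0.36 in CpG-rich windows. Canonical and basic transcripts, the 32-mer setting and all motif alternatives were chosen after seeing the data. Leaving out a replicate was not possible for the same reason as pairing. No paired analysis was possible because the pooled call gives 1 value per peak.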

Other observations

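A CACGTG centred 180 to 300 bp from the summit was present for 176 of the 622 summits without an E-box (28.3%) and for 42 of the 521 members (8.06%). Among the 622, it was present for 97 of the 260 that had another summit within 1 kb (37.3%) and for 79 of the 362 that had none (21.8%). Of the 133 members with another summit within 1 kb, 64 had it 180 to 300 bp away, and the median distance was 293 bp. For 113 of the 133 the nearest other summit held no E-box, and in 76 of these 113 cases the member had the higher fold enrichment. These values were computed after the data were seen, are given without a test, and their part in the comparisons was not tested.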
